A study of Mus musculus with 24 samples.

Results

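The genes described here encode the vacuolar proton pump (V-ATPase). They are Atp6v0d2, the d subunit isoform of osteoclasts and macrophages, and 9 widely or neuronally expressed partners, Atp6v0d1, Atp6v0a1, Atp6v0a2, Atp6v1a, Atp6v1b2, Atp6v1h, Atp6v0c, Atp6v1c1 and Atp6ap2. They were taken by gene symbol from a table of 53647 genes, and all 10 were found and passed the filter on low counts. A wider list of 26 pump genes, 13 of the V1 and 13 of the V0 sector, sets them in context, and 23 of these passed the filter. Atp6v1b1, Atp6v1e2 and Atp6v1g3, isoforms of kidney or testis, did not. Atp6v0d2 was chosen on its difference between 5xFADM28L and 5xFAD in these same libraries. That difference, and the one between 5xFADP522R and 5xFADM28L, are therefore given as descriptions without a test. The comparison of 5xFADP522R with 5xFAD shares the 5xFAD libraries with that choice, so its p-values for Atp6v0d2 are not free of it.

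RNA was sequenced from the brain cortex of mice aged 7.5 months in 24 libraries, 8 of each genotype. All 3 genotypes carried the 5xFAD transgenes, human familial Alzheimer's disease genes driven in neurons by the Thy1 promoter, so there was no group without them. The 5xFAD group had the unaltered Plcg2 gene, 5xFADM28L mice were homozygous for the M28L variant of Plcg2 and 5xFADP522R mice homozygous for its P522R variant. Plcg2 encodes phospholipase C-gamma-2, a signalling enzyme of microglia and other haematopoietic cells. Each genotype had 4 libraries whose titles held the letter F and 4 with the letter M, and the animal numbers in the titles name the replicates. Whole cortex mixes neurons, glia and blood vessels, so fewer cells of a type and less RNA per cell cannot be told apart for any gene below. Library totals ran from 79230161 to 115154197 counts. Each library was taken as 1 mouse from its animal number, and p-values measure the spread between libraries.

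The V-ATPase is a rotary machine that moves protons into lysosomes, endosomes, synaptic vesicles and, in osteoclasts, across the cell membrane. Its cytosolic V1 sector splits ATP, with Atp6v1a as catalytic subunit, and its membrane V0 sector passes protons through a ring built of proteolipids such as Atp6v0c and past an a subunit. Subunit d sits on the ring and couples it to the central stalk of V1. Several subunits come as isoforms: a1 is prominent in neurons and sorted to synaptic vesicles, a3 (Tcirg1) serves osteoclasts and macrophages, and d2 replaces d1 in osteoclasts and some macrophages. Atp6v0d2 is also known for a part in the fusion of osteoclast precursors, along with Dcstamp.

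RefSeq promoter windows on GRCm38.p6, reaching from 250 bases before to 50 bases after the start site, were at hand for 5 of the 10 members and for 19 of the 26 pump genes. Atp6v0d2 was among the members without a window, so no motif was looked for in its promoter. Promoters of 3 members are shown because their transcripts moved in different directions between genotypes, as described below. Capitals mark each occurrence of CACGTG, the core of the element that TFEB, a regulator of lysosomal genes, is known to bind. The Atp6v0d1 window lies at chr8:105566015-105566314 on the minus strand and that of Atp6v1a at chr16:44139210-44139509 on the minus strand. That of Atp6v0a1 lies at chr11:101010148-101010447 on the plus strand. These positions are not interchangeable with the deposited ones, which put Atp6v0d1 between 106251097 and 106292679 on chromosome 8.
Atp6v0d1: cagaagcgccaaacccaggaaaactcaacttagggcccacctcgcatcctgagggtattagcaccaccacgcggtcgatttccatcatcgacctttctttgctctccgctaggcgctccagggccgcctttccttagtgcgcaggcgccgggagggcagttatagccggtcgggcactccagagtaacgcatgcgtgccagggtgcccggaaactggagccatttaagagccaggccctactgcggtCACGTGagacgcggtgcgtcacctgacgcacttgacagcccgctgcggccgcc
Atp6v1a: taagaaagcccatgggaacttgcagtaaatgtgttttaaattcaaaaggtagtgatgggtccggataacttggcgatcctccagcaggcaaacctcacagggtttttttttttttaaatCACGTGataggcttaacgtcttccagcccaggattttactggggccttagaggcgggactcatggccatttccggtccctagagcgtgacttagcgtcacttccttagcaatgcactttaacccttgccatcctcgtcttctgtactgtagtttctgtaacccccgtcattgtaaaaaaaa
Atp6v0a1: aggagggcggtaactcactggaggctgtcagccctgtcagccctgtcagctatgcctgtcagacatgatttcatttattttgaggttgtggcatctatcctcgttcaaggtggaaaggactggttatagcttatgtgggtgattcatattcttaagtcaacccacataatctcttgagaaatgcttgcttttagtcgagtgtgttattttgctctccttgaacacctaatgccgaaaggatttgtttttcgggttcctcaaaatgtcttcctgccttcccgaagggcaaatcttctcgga

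The motif began 3 bases before the start site in the Atp6v0d1 window and 131 bases before it in the Atp6v1a window, and these letters were not in the Atp6v0a1 window. CACGTG is its own reverse complement, so 1 strand was searched for both. It occurred in 4 of the 24 windows of pump genes (16.7%), against 7.15% of all 32851 windows. The longer palindrome TCACGTGA, which contains CACGTG, occurred in 3 of the 24 pump gene windows, those of Atp6v0d1, Atp6v1a and Atp6v0e, and in 0.974% of all windows. These are matches of letters and no binding was measured.

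Atp6v0d2 (ENSMUSG00000028238.7) lies on chromosome 4, minus strand, between 19876841 and 19922605 (build not named in the deposited table), with 2716 bases of exon. In 5xFAD the F libraries held 116, 101, 172 and 147 reads of the gene and the M libraries 35, 39, 24 and 43. In 5xFADM28L the F libraries held 16, 5, 7 and 3 reads and the M libraries 3, 4, 1 and 2. In 5xFADP522R the F libraries held 13, 92, 124 and 142 reads and the M libraries 57, 64, 44 and 55. The transcript was thus rare in every library, with 677 reads over the 8 libraries of 5xFAD, 591 over those of 5xFADP522R and 41 over those of 5xFADM28L.

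Levels are given in CPM, read counts scaled to a common library size with TMM factors. Atp6v0d2 ran from 0.216 to 1.62 CPM in 5xFAD with a median of 0.668, and its mean was 0.811 ± 0.565 CPM (SD, n = 8). In 5xFADM28L it ran from 0.00992 to 0.154 CPM with a median of 0.0317, and its mean was 0.0481 ± 0.0462 CPM (SD, n = 8). In 5xFADP522R it ran from 0.153 to 1.42 CPM with a median of 0.634, and its mean was 0.777 ± 0.450 CPM (SD, n = 8). Every 5xFADM28L library lay below every 5xFAD library. The 5xFADP522R libraries overlapped both other groups, because replicate 8 (0.153 CPM) fell below the highest 5xFADM28L library, replicate 28 (0.154 CPM). The order of the means was 5xFAD, 5xFADP522R, 5xFADM28L, and the first 2 differed by less than their spread.

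**Figure D1:**
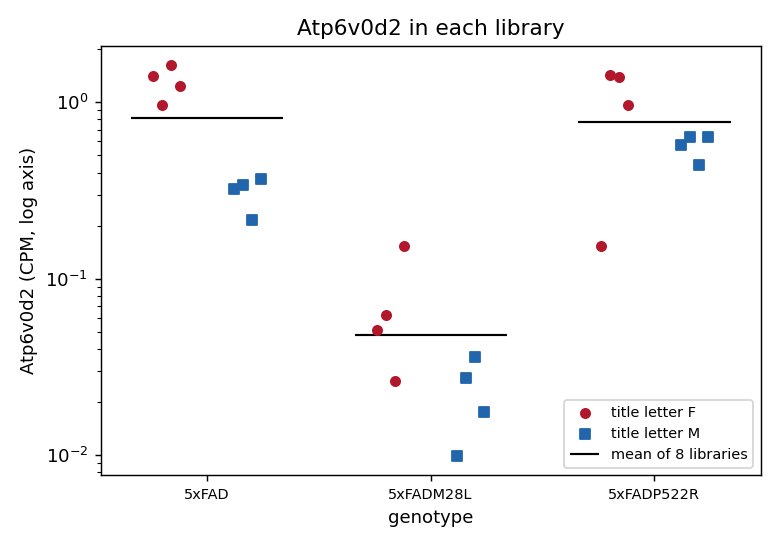
Atp6v0d2 in CPM (vertical log axis) in each of the 24 libraries by genotype, with circles for title letter F, squares for M and a line at the mean of 8 libraries. The 5xFADM28L libraries sit between 0.00992 and 0.154 CPM, all below the 5xFAD libraries, and 1 circle of 5xFADP522R lies among them at 0.153 CPM.

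The fitted log2 difference of Atp6v0d2 between 5xFADM28L and 5xFAD was -3.94 (SE 0.40), and the mean CPM of 5xFAD was 16.9 times that of 5xFADM28L. Only 1 of the 21280 genes tested had a lower fitted difference in this comparison. Between 5xFADP522R and 5xFADM28L the fitted difference was 4.14 (SE 0.40), and no tested gene had a higher one. Across all genes, 1.21% were called between 5xFADM28L and 5xFAD at an adjusted p below 0.05, with 0.503% higher and 0.710% lower. The CPM of these 2 groups did not overlap for 0.254% of genes. Both figures are backgrounds for the contrast the gene was chosen on, and nothing is read from them for Atp6v0d2.

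The comparison of 5xFADP522R with 5xFAD was not the one the gene was chosen on, but it shares the 5xFAD libraries with that one. The p-values below are therefore not free of the choice. Atp6v0d2 was not called there. Its log2 difference was 0.20 (SE 0.31, 95% interval -0.45 to 0.84, adjusted p = 0.684), against 29.8% of all genes called. An exact two-sided permutation of log2 CPM gave p = 0.951 (0.986 adjusted over 28 tests of the 10 genes). Without replicate 8, the lowest library of 5xFADP522R, the difference was 0.44 (edgeR adjusted p = 0.173). Leaving out 1 library thus moved the value by more than its own size while the call stayed the same. In the M libraries alone it was 0.86 (adjusted p = 0.0685) and in the F libraries alone it was -0.33 (adjusted p = 0.673). The difference between the letters was not called (log2 -1.27, SE 0.60, edgeR adjusted p = 0.353), in a test that called 0 of 21280 genes and had 2874 at an unadjusted p below 0.05.

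Atp6v0d2 differed between the title letters. It was higher in F than in M by 1.45 on the log2 scale (SE 0.29, edgeR adjusted p = 0.000351), where 33.8% of all genes were called, 16.4% higher in F and 17.4% lower. In 5xFAD all 4 F libraries (0.969 to 1.62 CPM) lay above all 4 M libraries (0.216 to 0.367 CPM), and the mean of F was 4.199 times that of M. In 5xFADM28L 3 of 4 F libraries lay above all M libraries, with a ratio of means of 3.23. In 5xFADP522R 3 of 4 F libraries did too, with a ratio of 1.73, and replicate 8 lay below every M library. Within single genotypes, exact two-sided permutation of 4 against 4 libraries gave p = 0.0286 in 5xFAD, the smallest it can give, 0.0857 in 5xFADM28L and 0.714 in 5xFADP522R, or 0.0857, 0.129 and 0.714 after adjustment over these 3 tests. Microglial genes moved with the letter as well: of 12 plaque microglia genes 12 were higher in F, with a median log2 difference of 1.02, and of 10 pan microglia genes 9 were. Both lists were chosen with earlier results of these data known. The part of microglial abundance in the difference of Atp6v0d2 between letters was not tested.

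To set Atp6v0d2 beside the cells that can express it, its log2 CPM was taken relative to the mean log2 CPM of marker lists in the same library. Relative to 10 pan microglia genes it was -6.97 ± 0.72 in 5xFAD, -10.18 ± 0.73 in 5xFADM28L and -6.95 ± 0.85 in 5xFADP522R (mean ± SD, n = 8 each). Relative to 12 plaque microglia genes, which are known to rise in microglia around amyloid, it was -5.83 ± 0.55, -8.50 ± 0.62 and -5.98 ± 0.79 in the same order. Relative to its paralog Atp6v0d1 it was -8.61 ± 0.99, -12.09 ± 0.78 and -9.07 ± 1.07. By each of the 3 yardsticks, the 5xFADM28L mean lay over 2 units of log2 below both others, and these values are descriptions since they hold the contrast the gene was chosen on. The log2 CPM values include a prior count of 2, which lifts the lowest levels most, here those of Atp6v0d2 in 5xFADM28L. The marker lists were chosen with earlier results of these data known, so the counts of calls in them are descriptions. In 5xFADM28L 8 of 12 plaque microglia genes were called lower than in 5xFAD, with a median log2 difference of -0.71, where 0.710% of all genes were called lower. Of 10 pan microglia genes 1, Cx3cr1, was called lower. Their median log2 difference was -0.33, with 8 of the 10 negative and 7 at an unadjusted edgeR p below 0.05. The summed level of the plaque genes ran from 331 to 787 CPM in 5xFAD, from 243 to 498 in 5xFADM28L and from 296 to 960 in 5xFADP522R. The summed level of the pan microglia genes ran from 748 to 1593, from 682 to 1324 and from 760 to 1650 CPM. The genotypes overlapped in both sums, over ranges that pool the F and M libraries. In the order 5xFAD, 5xFADM28L and 5xFADP522R, the medians were 576, 371 and 601 CPM for the plaque genes. For the pan microglia genes they were 1273, 940 and 1260 CPM. The part of these cells in the difference of Atp6v0d2 was not tested.

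**Figure D2:**
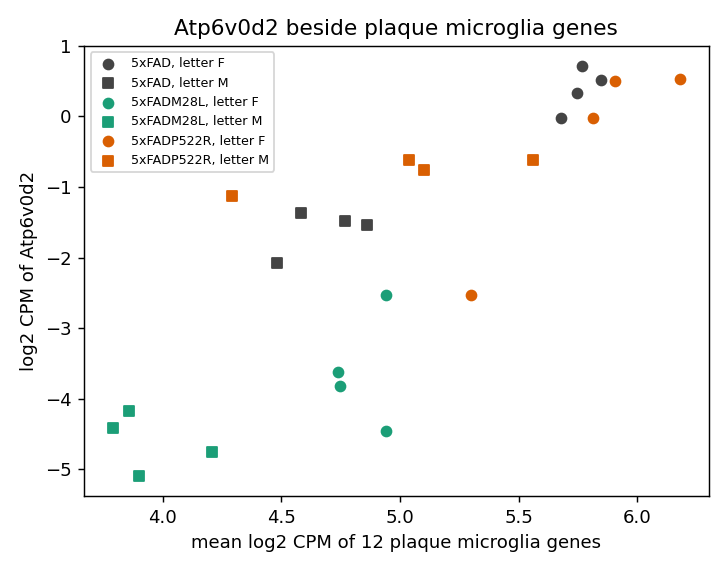
Log2 CPM of Atp6v0d2 (vertical axis) against the mean log2 CPM of 12 plaque microglia genes (horizontal axis), 1 point per library, coloured by genotype, circles for letter F and squares for M. All 5xFADM28L libraries lie at -2.53 or below on the vertical axis, and replicate 8 of 5xFADP522R lies at that height too, with a plaque gene mean of 5.30.

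Osteoclasts and multinucleated giant cells use Atp6v0d2 with a set of genes for fusion and bone resorption, and 8 of 10 such genes passed the filter. This list too was chosen with earlier results of these data known, so counts of calls in it are descriptions. Between 5xFADM28L and 5xFAD 1 of the 8 was called, where 1.21% of all genes were called. It was Dcstamp, a membrane protein needed for cell fusion, with a log2 difference of -2.94 (SE 0.42, edgeR adjusted p = 0.000205). Dcstamp averaged 0.705 ± 0.376 CPM in 5xFAD, 0.0854 ± 0.0810 in 5xFADM28L and 1.199 ± 0.670 in 5xFADP522R (SD, n = 8 each). The median log2 difference over the 8 genes was 0.04, beside 0.01 over all genes. Ctsk, the osteoclast collagenase cathepsin K, averaged 3.42 CPM in 5xFAD and 3.41 in 5xFADM28L. Mmp9, a secreted protease, averaged 1.45 and 1.55 CPM. Ocstamp, the partner of Dcstamp in fusion, was at 0 reads in 14 of 24 libraries and Siglec15 in 11. Nfatc1, the transcription factor that drives osteoclast formation, averaged 6.74 CPM in 5xFAD, 6.85 in 5xFADM28L and 9.98 in 5xFADP522R. It was called higher in 5xFADP522R than in 5xFAD (log2 0.57, SE 0.10, edgeR adjusted p = 7.79e-05). That was the only call among the 8 genes in this comparison, where 29.8% of all genes were called.

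The genes whose level over the 24 libraries was most like that of Atp6v0d2 were Mamdc2 (Pearson r = 0.911), Itgax (0.893), Cybb (0.880), Lilrb4a (0.878), Gpnmb (0.866), Plau (0.850), Dcstamp (0.846) and Dkk2 (0.844), out of 13997 genes ranked. These correlations share the genotype and letter differences. After the genotype and letter means were removed, the 8 highest were Dnajc25 (0.862), Phlda1, Ctcf, Rbmx2, Pdap1, Il1r1, Tlr1 and Basp1 (0.784). Without the 2 libraries farthest from the median of Atp6v0d2 those 8 values fell to between 0.475 and 0.652, so they rest in part on those libraries. Without the 2 libraries farthest on their own measure, the first 8 values were between 0.795 and 0.900. Those values still hold the genotype difference on which Atp6v0d2 was chosen, so nothing is read from this.

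Levels of different genes are compared per exon length, in RPKM. Over the 24 libraries the order among the 10 genes was Atp6v0d1 at 162 ± 36.2 RPKM (SD, n = 24), Atp6v1b2 at 148 ± 17.4, Atp6v0a1 at 95 ± 24.8, Atp6v0c at 94.1 ± 16.2, Atp6v1a at 80.6 ± 11.2, Atp6ap2 at 64.3 ± 10.4, Atp6v1c1 at 49.5 ± 5.26, Atp6v1h at 20.6 ± 1.90, Atp6v0a2 at 11.1 ± 0.870 and Atp6v0d2 at 0.201 ± 0.198. From Atp6v0d1 to Atp6v1c1, neighbours in this order overlapped in their ranges. Atp6v1h, Atp6v0a2 and Atp6v0d2 each lay below the gene before them in every library. Atp6v0d2 was the most variable of the 10, with a coefficient of variation of 98.5% over the 24 libraries, against 7.81% for Atp6v0a2 and 26.1% for Atp6v0a1.

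**Figure D3:**
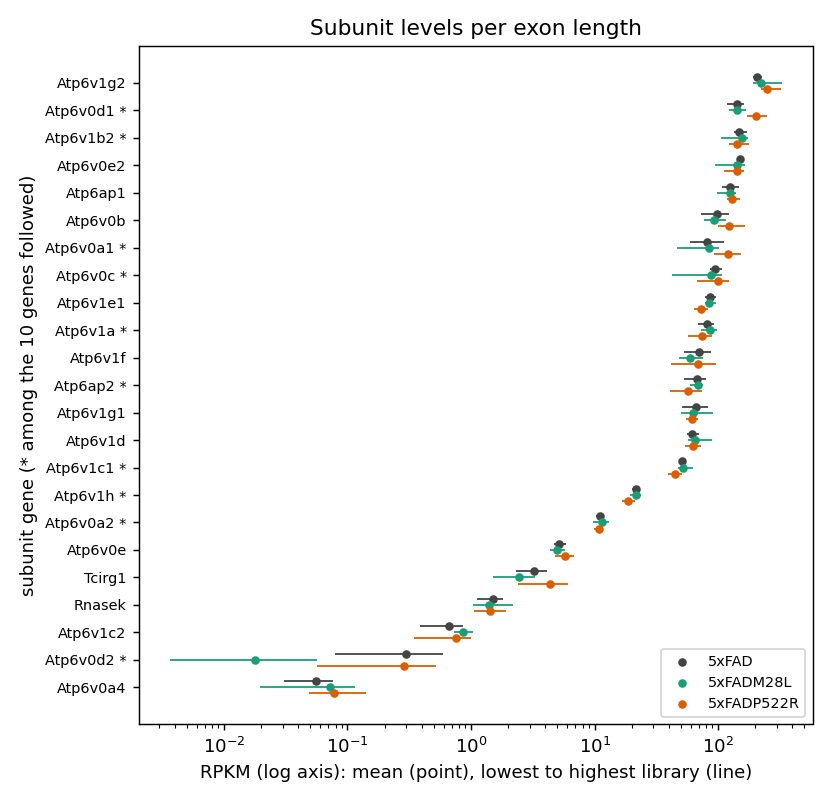
Mean RPKM (point, horizontal log axis) and range over 8 libraries (line) of the 23 pump genes that passed the filter, by genotype, ordered by level. Atp6v0d2 is the second lowest and the only gene of the plot whose 5xFADM28L range lies wholly below its 5xFAD range.

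The paralogs of subunit d differ by orders of magnitude in this tissue. Atp6v0d2 made up 0.200 ± 0.125% of the summed RPKM of d1 and d2 in 5xFAD, 0.0126 ± 0.0125% in 5xFADM28L and 0.145 ± 0.0844% in 5xFADP522R (SD, n = 8 each). Among the 4 isoforms of subunit a, Atp6v0a1 held 84.6 ± 2.40% of the summed RPKM in 5xFAD, 85.3 ± 2.29% in 5xFADM28L and 88.6 ± 1.31% in 5xFADP522R. Atp6v0a2, an isoform of the Golgi and early endosomes, held 11.8 ± 1.40%, 12.1 ± 2.13% and 8.13 ± 1.08%. Tcirg1, the a3 isoform of osteoclasts and macrophages, held 3.53 ± 1.096%, 2.50 ± 0.474% and 3.22 ± 0.877%. The dominant isoform was thus the same in every genotype for both subunits.

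The other 9 members did not differ between 5xFADM28L and 5xFAD by the main test. Their log2 differences ran from -0.12 to 0.09, their 95% intervals lay between -0.39 and 0.32, and 0 of the 9 were called or had an unadjusted p below 0.05 in edgeR. DESeq2 called 0 of them too, while limma-voom with sample weights called 3 higher, Atp6v0a1 (log2 0.21), Atp6v0a2 (0.14) and Atp6v1b2 (0.17), in a fit that called 18.1% of all genes. Over all 23 pump genes tested, 0 were called higher and 1 lower, Atp6v0d2 itself, and 3 of the other 22 had an unadjusted p below 0.05. Those 3 were Atp6v1c2 (log2 0.39, SE 0.18), an epithelial C subunit, Atp6v1f (-0.23, SE 0.09), part of the central stalk, and Tcirg1 (-0.38, SE 0.16). The median over the 23 genes was -0.0028 on the log2 scale, beside 0.0058 over all genes.

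Between 5xFADP522R and 5xFAD, 6 of the 9 other members were called, 2 higher and 4 lower, where 15.0% of all genes were called higher and 14.8% lower. The same 5xFADP522R libraries were compared with 5xFADM28L, where 34.8% of genes were called, 16.5% higher and 18.3% lower. The values of both comparisons are given side by side and share those libraries, so they are not independent of each other. Over the 23 pump genes tested, 5 were called higher and 5 lower against 5xFAD, and 6 higher, Atp6v0d2 among them, and 5 lower against 5xFADM28L. The medians over the 23 genes tested were 0.04 and 0.01 on the log2 scale, beside -0.04 and -0.03 over all genes.

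The members called higher both belong to V0. Atp6v0d1, the d subunit of most cells, ran from 210 to 290 CPM in 5xFAD (median 264), from 219 to 300 in 5xFADM28L (median 248) and from 308 to 444 in 5xFADP522R (median 339). Every 5xFADP522R library lay above every library of both other genotypes. The log2 difference was 0.51 (SE 0.08, adjusted p = 2.56e-05) against 5xFAD and 0.52 (SE 0.08, adjusted p = 1.37e-05) against 5xFADM28L. The CPM of the 2 groups did not overlap for 2.89% and 2.61% of all genes in these comparisons. Exact permutation of log2 CPM gave p = 0.000155 in each comparison, the smallest it can give (0.00218 adjusted over 28 tests). Atp6v0d1 was also higher in F than in M, by 0.20 on the log2 scale (SE 0.06, adjusted p = 0.0153).

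Atp6v0a1, the a subunit of synaptic vesicles, ran from 389 to 734 CPM in 5xFAD (median 529), from 307 to 664 in 5xFADM28L (median 598) and from 613 to 998 in 5xFADP522R (median 755). Of the 8 libraries of 5xFADP522R, 6 lay above every 5xFAD library. The log2 difference was 0.59 (SE 0.12, adjusted p = 0.000709) against 5xFAD and 0.52 (SE 0.12, adjusted p = 0.00165) against 5xFADM28L. In the F libraries alone the difference from 5xFAD was 0.86 and in the M libraries alone 0.39, both called. Between the letters Atp6v0a1 was not called (log2 -0.25, SE 0.10, adjusted p = 0.0521).

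**Figure D4:**
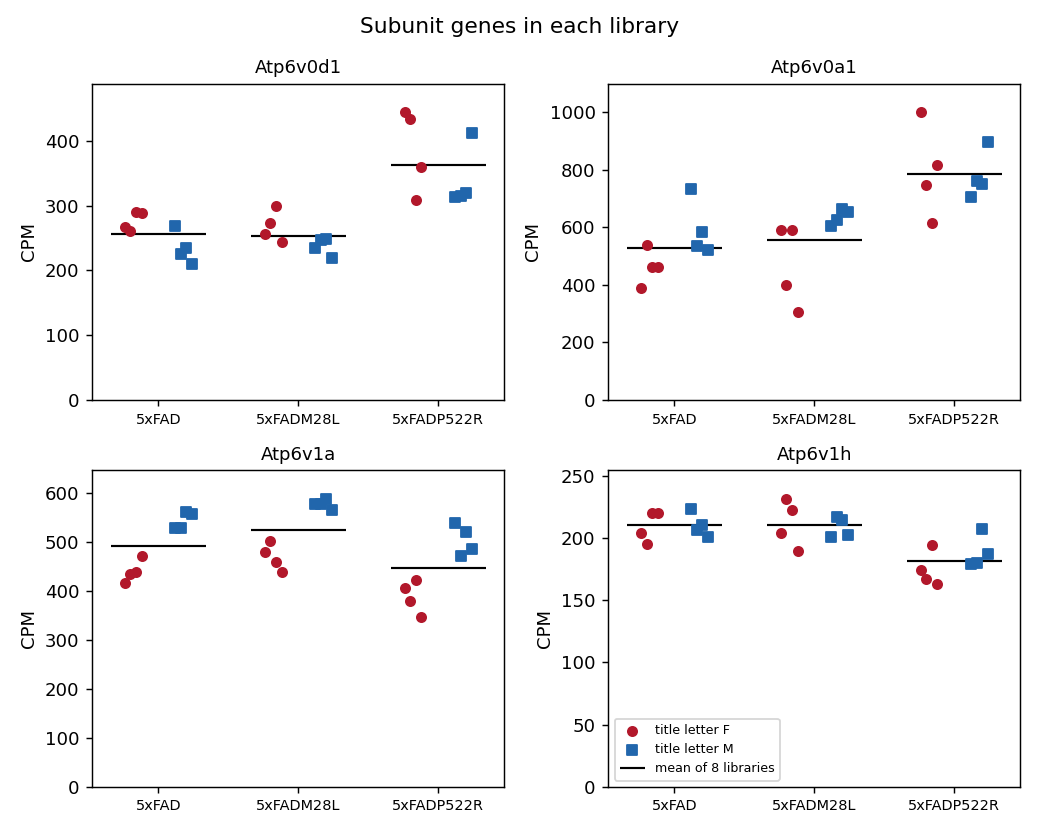
CPM (vertical axis from 0) of 4 members in each of the 24 libraries by genotype, circles for letter F, squares for M and a line at the mean of 8 libraries. The 5xFADP522R libraries of Atp6v0d1 lie at 308 CPM or above, over all other libraries, while Atp6v1a shows squares above circles in each genotype.

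The members called lower were 3 V1 subunits and an accessory protein, all by small amounts. Atp6v1h, which joins the sectors as regulatory subunit H, ran from 195 to 223 CPM in 5xFAD (median 208), from 189 to 231 in 5xFADM28L (median 209) and from 163 to 207 in 5xFADP522R (median 179). Its log2 difference was -0.21 (SE 0.06) against each of the other genotypes, with adjusted p = 0.00784 and 0.00644, and 7 of 8 5xFADP522R libraries lay below every 5xFAD library. With offsets for GC and length it was -0.024 against 5xFAD (adjusted p = 0.854) and turned to 0.042 against 5xFADM28L (adjusted p = 0.727). Its exons overlap those of Rgs20 on the other strand, and since the strand setting is unknown their reads cannot be told apart there.

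Atp6v1c1, the C subunit that leaves when the pump disassembles, ran from 273 to 310 CPM in 5xFAD (median 280), from 264 to 348 in 5xFADM28L (median 277) and from 222 to 288 in 5xFADP522R (median 250). The log2 difference was -0.19 (SE 0.07, adjusted p = 0.0337) against 5xFAD and -0.22 (SE 0.07, adjusted p = 0.0116) against 5xFADM28L. As for Atp6v1h, 7 of 8 libraries lay below all of 5xFAD.

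Atp6v1a, the catalytic subunit, ran from 415 to 561 CPM in 5xFAD (median 500), from 439 to 587 in 5xFADM28L (median 534) and from 347 to 538 in 5xFADP522R (median 447). The spread within each genotype followed the title letter. In 5xFAD the F libraries ran from 415 to 471 CPM and the M libraries from 528 to 561, and F and M did not overlap in either of the other genotypes. The F libraries were lower by -0.32 on the log2 scale (SE 0.04, adjusted p = 4.51e-06). With the letter in the fit the difference of 5xFADP522R from 5xFAD was -0.15 (SE 0.05, adjusted p = 0.0431), and from 5xFADM28L it was -0.24 (SE 0.05, adjusted p = 0.00133). With GC and length offsets the latter was -0.053 (adjusted p = 0.398), and with the Bc1 term it was -0.093 (adjusted p = 0.877).

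Atp6ap2, the prorenin receptor and an assembly partner of V0, ran from 138 to 209 CPM in 5xFAD (median 180), from 156 to 196 in 5xFADM28L (median 182) and from 107 to 193 in 5xFADP522R (median 153). Its log2 difference was -0.23 (SE 0.08, adjusted p = 0.0449) against 5xFAD and -0.26 (SE 0.09, adjusted p = 0.0190) against 5xFADM28L. It was lower in F than in M by -0.28 (SE 0.07, adjusted p = 0.00237).

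Exact permutation of log2 CPM, which leaves the letter out of account, did not separate the genotypes for all of the members called by the fit. Adjusted over 28 tests, against 5xFAD and against 5xFADM28L in that order, this exact permutation test gave p = 0.00435 and 0.00544 for Atp6v0a1. It gave 0.00696 and 0.00808 for Atp6v1h, and 0.00808 and 0.0218 for Atp6v1c1. For Atp6v1a it gave 0.36 and 0.0905, and for Atp6ap2 0.263 and 0.0905, so that neither passed 0.05 in either comparison.

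The remaining 3 members were not called in any genotype comparison by the main fit. Atp6v1b2, the B subunit of most tissues, had log2 differences of -0.06 (95% interval -0.23 to 0.12) in 5xFADP522R against 5xFAD and -0.13 (-0.31 to 0.04) against 5xFADM28L. The latter became -0.20 (adjusted p = 0.0237) without replicate 28 of 5xFADM28L, whose 557 CPM was the lowest of all 24 libraries, and -0.28 (adjusted p = 0.0164) in the M libraries alone. Atp6v0a2 had differences of -0.02 (-0.15 to 0.11) and -0.09 (-0.22 to 0.03). In 2 of 14 alternative fits Atp6v0a2 was called lower against 5xFADM28L, and the lowest difference over the 14 was -0.21. Atp6v0c, the proteolipid of the ring, had differences of 0.07 (-0.19 to 0.33) and 0.20 (-0.06 to 0.46), and 2 processed copies, Atp6v0c-ps1 and Atp6v0c-ps2, had 349 and 8937 reads of their own beside 787444, so some of its reads may have been split or lost in counting.

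Over the whole list of pump genes, 4 of 13 V0 genes tested were called higher and 1 lower in 5xFADP522R than in 5xFAD. Of 10 V1 genes, 1 was called higher and 4 lower, where 15.0% of all genes were called higher and 14.8% lower. With the share of Bc1, a noncoding RNA described below, as a further term, 0 of the 23 pump genes tested were called. Tcirg1 was higher by 0.43 (SE 0.15, adjusted p = 0.0361) against 5xFAD and by 0.81 (SE 0.16) against 5xFADM28L, and Atp6v0b, the second proteolipid, by 0.33 (SE 0.09, adjusted p = 0.00738) and 0.41 (SE 0.09). Atp6v1g2, the neuronal G subunit and the highest of all pump genes per length at 225 RPKM, was higher by 0.25 (SE 0.09, adjusted p = 0.0317) against 5xFAD. Atp6v0e was higher by 0.22 (SE 0.07, adjusted p = 0.0154) against 5xFADM28L. Atp6v1e1, a subunit of the peripheral stalk, was lower by -0.22 (SE 0.06, adjusted p = 0.0103) against 5xFAD and -0.21 (SE 0.06) against 5xFADM28L. The sectors were not compared with each other by a test.

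**Figure D5:**
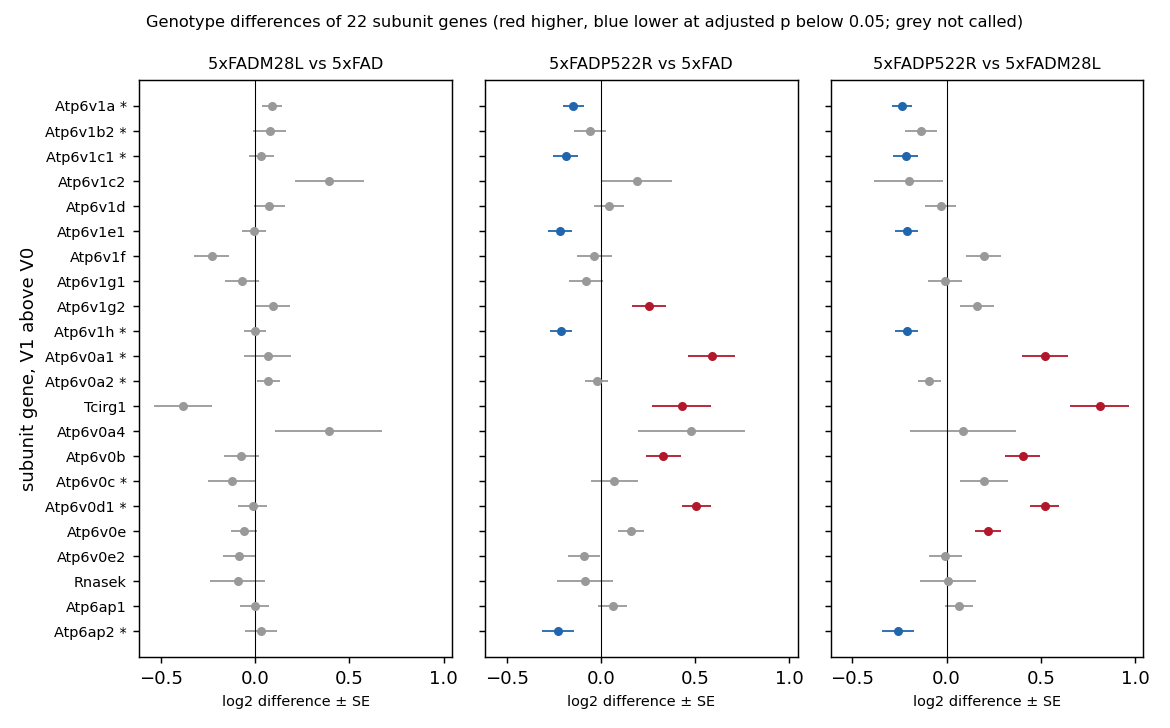
Log2 difference with its SE (horizontal axis) of 22 pump genes in 3 genotype comparisons, V1 genes above V0 genes, red where called higher, blue where called lower and grey where not called. Atp6v0d2, at -3.94, 0.20 and 4.14, is left out because it lies beyond the axis, and no gene is coloured in the comparison of 5xFADM28L with 5xFAD.

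Several measures moved with the 5xFADP522R group. Bc1, a short noncoding RNA of neurons, took 10.2 ± 4.55% of all counts there, 5.81 ± 2.14% in 5xFAD and 3.998 ± 0.922% in 5xFADM28L (SD, n = 8 each). Of 8 neuron genes 4 were called lower than in 5xFAD, of 4 astrocyte genes 2 were called higher, and of 5 border macrophage genes 3 were, where 15.0% of all genes were called higher and 14.8% lower. The number of genes with at least 1 read ran from 22958 to 26648 in the 5xFADP522R libraries, from 27831 to 29012 in 5xFAD and from 25608 to 28227 in 5xFADM28L, so that 5xFADP522R and 5xFAD did not overlap. The TMM factors ran from 0.849 to 0.99996 in 5xFADP522R, from 0.971 to 1.057 in 5xFAD and from 1.006 to 1.058 in 5xFADM28L. With the share of Bc1 as a further term, the difference from 5xFAD was 0.31 for Atp6v0d1 (adjusted p = 0.0656) and 0.53 for Atp6v0a1 (adjusted p = 0.0951). Without the 5 libraries with over 10% Bc1, 4 of them 5xFADP522R and 1 of them 5xFAD, it was 0.34 for Atp6v0d1 (adjusted p = 0.00574) and 0.30 for Atp6v0a1 (adjusted p = 0.148). Against 5xFADM28L the Bc1 term left Atp6v0d1 at 0.19 (adjusted p = 0.767), and Atp6v0a1 at 0.43 (adjusted p = 0.675), beside 0.52 for both without the term. The 4 members called lower than in 5xFAD were not called with GC and length offsets, which put them between -0.10 for Atp6ap2 and -0.01 for Atp6v1a, nor in the F libraries alone, in the M libraries alone, with the Bc1 term or without the 5 libraries. Against 5xFADM28L the same 4 members were not called with the offsets, with the Bc1 term or without the 5 libraries. In that comparison the F libraries alone gave a call for Atp6v1c1 and the M libraries alone for Atp6v1a, and for none of the other 3 in each case. Atp6v0d1 and Atp6v0a1 were called with the offsets and for each letter alone. The part of Bc1, the number of genes detected and the cell types in these differences was not tested. When each library was left out in turn, Atp6v0d1, Atp6v0a1 and Atp6v1h were called in all 24 fits, and Atp6v1a was not called in 15, Atp6ap2 in 14 and Atp6v1c1 in 7.

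Within the pump, levels of Atp6v0d1 after removal of the genotype and letter means went with those of Atp6v0b (Pearson r = 0.950 over 24 libraries), Atp6v1f (0.730), Atp6ap1 (0.718) and Tcirg1 (0.617). Atp6v0d2 had r = -0.27 with Atp6v0d1 by the same measure. These correlations are descriptions over libraries that share depth and composition effects.

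Genes that help the pump assemble, or that work with it on the lysosome, gave further context. Of 10 assembly and regulation genes tested, edgeR called 0 between 5xFADM28L and 5xFAD, and 1 had an unadjusted p below 0.05. Between 5xFADP522R and 5xFAD 1 of them was called higher, Rogdi (log2 0.43, SE 0.07), and 3 lower, Dmxl1 (-0.28, SE 0.10), Dmxl2 (-0.31, SE 0.06), both rabconnectins that promote reassembly of the sectors, and the assembly factor Ccdc115 (-0.38, SE 0.11). Among 12 lysosomal ion transport genes 3 were called higher, the exchanger Clcn6 (0.55, SE 0.13) and the cation channels Mcoln1 (0.31, SE 0.09) and Tpcn1 (0.50, SE 0.12), and 3 lower, the chloride-proton exchangers Clcn3 (-0.28, SE 0.08) and Clcn4 (-0.18, SE 0.06) and Ostm1 (-0.42, SE 0.08), the partner of Clcn7. Among 10 genes of the Ragulator and Rag list, most of which help hold mTORC1 at lysosomes, Lamtor1 was called higher (0.26, SE 0.07) and Rragd lower (-0.48, SE 0.09). In this comparison 29.8% of all genes were called. The share called lay below that in the Ragulator list (2 of 10) and above it in the assembly list (4 of 10) and the ion transport list (6 of 12). No list was tested as a set. The median log2 differences of the 3 lists were -0.14, -0.09 and 0.02, beside -0.04 over all genes.

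Between the letters, 6 of 23 pump genes were called higher in F and 2 lower, a share near the 33.8% of all genes called. Besides Atp6v0d2 and Atp6v0d1 the higher ones were Atp6v1f (log2 0.46, SE 0.08), Atp6v1g1 (0.37, SE 0.07), Tcirg1 (0.42, SE 0.13) and Atp6v0b (0.38, SE 0.08), and the lower ones were Atp6v1a and Atp6ap2. With upper-quartile factors 10 were higher and 2 lower, and the share of all called genes that were higher in F moved from 48.6% to 63.2%. For 5xFADM28L against 5xFAD the same change of factors moved that share from 41.5% to 30.1%, with 0 pump genes higher and 1 lower as before. The letters were also set against genotype in 1 fit with their interaction, where 5.47% of all genes differed between the letters in the comparison of 5xFADP522R with 5xFADM28L. Of the 23 pump genes 1 did, Atp6v1g1, by -0.51 on the log2 scale (SE 0.15, adjusted p = 0.0449), a share no higher than that of all genes. The same interaction was called by edgeR for 6 of the 21280 genes in 5xFADM28L against 5xFAD and for 0 in 5xFADP522R against 5xFAD, with 470 and 2874 at an unadjusted p below 0.05.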

How the data were processed

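Messenger RNA of 24 mouse cortex libraries was sequenced. Per the labels' protocols, the library kit was KAPA mRNA HyperPrep. STAR 2.7.2b and featureCounts are named in the submitters' processing notes. The sources used here give no genome build, annotation or strand setting. The authors deposited whole-number read counts per gene, not normalized, for 53647 genes, with exon lengths. Total counts per library ran from 79230161 to 115154197. Symbols came from GENCODE M21, which matched 52093 identifiers (97.1%). The members and lists were chosen with earlier results of these data known. No 2 libraries had identical counts.

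Counts were tested with edgeR 4.0.16 in R 4.3.3 (quasi-likelihood F-test) after TMM scaling and a filterByExpr filter by genotype, in 1 fit of all 24 libraries with genotype and title letter as terms. The filter left 21280 genes. Calls needed an adjusted p (Benjamini-Hochberg, over those genes) below 0.05. CPM is the count scaled to the TMM-adjusted library size, and RPKM is CPM per kilobase of deposited exon length. All log2 CPM values had a prior count of 2, which lifts the lowest levels most. Genes were ranked by likeness to Atp6v0d2 among those with a mean of at least 0.5 CPM. Single genes were also compared by exact two-sided permutation of log2 CPM. The pipeline was tested on simulated counts. Alternatives were DESeq2 1.42.0, limma-voom (limma 3.58.1), RLE and upper-quartile factors, other filters, other terms, offsets for GC content and length, fewer libraries, and a fit with the title prefix as a replicate block. The genes named were all 26 subunit genes, genes of the fixed lists and the 8 most like Atp6v0d2 by each of 2 measures.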

Additional observations from a re-analysis of the deposited data

Results flagged for a closer look

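Of 30 groups of 8 libraries, the 10 genes in 3 genotypes, 4 held 1 library far from the other 7 by Dixon's Q on CPM (above 0.526). Chance marks about 1 in 20 groups of independent, normally distributed values. The groups here pool F and M libraries and hold the same libraries for each gene, so that rate is only a rough guide. In 5xFADM28L the marked library was replicate 28 each time, with 0.154 CPM of Atp6v0d2 as the highest value, and with 557 CPM of Atp6v1b2 and 145 CPM of Atp6v0c as the lowest. In 5xFADP522R replicate 8 was the highest for Atp6v1b2, at 942 CPM. Without replicate 28, Atp6v0d2 differed between 5xFADM28L and 5xFAD by -4.33 on the log2 scale.

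The difference of Atp6v1g1, the widely expressed G subunit, between 5xFADP522R and 5xFADM28L was unlike in the title letters. The difference in F minus the difference in M was -0.51 on the log2 scale (SE 0.15, adjusted p = 0.0449 for the interaction of genotype and letter). It was 1 of 23 pump genes called, where 5.47% of all genes were, so the count is no higher than over all genes. In the F libraries Atp6v1g1 averaged 70.7 ± 5.43 CPM in 5xFADP522R and 85.2 ± 16.5 in 5xFADM28L, and in the M libraries 68.2 ± 4.68 and 57.8 ± 1.27 (SD, n = 4 each).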

How the results depend on the processing

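Atp6v0d2 stayed between -4.33 and -3.72 on the log2 scale for 5xFADM28L against 5xFAD, uncalled for 5xFADP522R against 5xFAD and called between the letters in every alternative that gave a value, and a filter at a mean of 1 CPM left it without one. Pump genes called between 5xFADM28L and 5xFAD numbered 1, but 7 with limma-voom, 0 with the filter at 1 CPM and 2 with GC and length offsets, and 1 whichever library was left out. Against 5xFAD, 5xFADP522R had 10, but 6 with no filter, 4 without the letter, 2 and 5 in the F and M libraries alone, 0 with the Bc1 share as a term and 1 without the 5 libraries high in Bc1, an alternative chosen after seeing the data. Leaving out 1 library gave 5 to 11, with 6 without replicate 106 or 24 of 5xFADP522R or 1248 or 1270 of 5xFAD and 5 without 1269. Against 5xFADM28L it had 11, but 7 in the F libraries, 1 with the Bc1 term, 7 with GC and length offsets and 2 without those 5 libraries, and 10 to 13 leaving out 1 library. Between the letters 8 were called, but 15 with limma-voom and 4 with the Bc1 term, and 8 to 12 leaving out 1 library. In 5xFADP522R against 5xFADM28L, Atp6v1h turned to 0.042 with GC and length offsets and Atp6ap2 to 0.028 with the Bc1 term. Causes were not tested.

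The title prefixes are shared by some animals of different genotypes, but the labels do not say what they mark. Same-prefix libraries had correlations of their deviations from -0.07 to 0.15, so the prefix was not taken to pair them. With the prefix as a replicate block, 0 pump genes were called for 5xFADP522R against 5xFAD and 3 against 5xFADM28L, from a fit with few shared prefixes. Counts of 1 to 16 reads per library limit the precision of Atp6v0d2 in 5xFADM28L.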
